A study of Mus musculus with 2 samples.

Results

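The genes of the mitochondrial ribosome whose symbols begin with Mrpl (large subunit) or Mrps (small subunit) were compared between 2 RNA-seq libraries of cultured mouse macrophages. The rule that chose them took symbols alone, Mrpl or Mrps followed by a number, and used no measured value. It was set with earlier results of these data known. The rule found 76 genes (47 Mrpl and 29 Mrps) among 23444 gene symbols. Both libraries came from bone marrow derived macrophages of FVB mice kept for 72 hours in 10 ng/mL of the cytokine interleukin-4 (recombinant). One was labelled WT (RON proficient) and the other RON TK-/- (RON deficient). Mst1r encodes RON, a receptor tyrosine kinase found on macrophages, and the label TK-/- is read here only as it stands. The labels do not state how many mice gave cells to each library. With 1 library per group no difference has a replicate check, so no test was run and every comparison below is between these libraries, not between genotypes.

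Mitochondria keep their own ribosome, which translates the few messages encoded by mitochondrial DNA, all of them for subunits of the respiratory chain and ATP synthase. Every protein of that ribosome is encoded in the nucleus, made in the cytosol and imported. About its ribosomal RNAs, which mitochondrial DNA supplies, sit homologs of bacterial ribosomal proteins and a further set of proteins that bacteria lack. In macrophages, interleukin-4 is known to favour oxidative metabolism, while inflammatory stimuli favour glycolysis.

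The labels could not be checked by the targeted gene, since Mst1r was listed at 0 FPKM in both libraries. Chil3, induced by interleukin-4 in macrophages, was at 4604 FPKM in the RON TK-/- labelled library and listed at 0 in the WT-labelled library, and Arg1 was at 5041 and 1.0 FPKM. Nos2 and Il1b, genes of inflammatory activation, were at 1100 and 823 FPKM in the WT-labelled library and at 3.63 and 0.20 FPKM in the other. The WT-labelled library thus went against its treatment label, and all values below carry that difference between the libraries. All 8 macrophage markers examined were present, with summed levels of 4527 and 6279 FPKM, of which Lyz2 alone had 3317 and 4651 FPKM. Mertk (32.5 and 9.68 FPKM), Fcgr1 (26.6 and 3.58 FPKM) and Aif1 (5.65 and 3.61 FPKM) were lower in the RON TK-/- labelled library, and the others higher. Of the other lists examined, 4 fibroblast markers including Col1a1 summed to 660 and 878 FPKM, while T cell, B cell, NK cell, neutrophil, dendritic cell, mast cell, erythroid and megakaryocyte markers summed to 2.34 FPKM or less. The part of these markers in the results was not tested. Bulk RNA cannot tell fewer cells of a type from less RNA per cell. Deposited coverage implied 54165500 and 61915200 reads in the 2 libraries (to 6 digits), and from 182 to 2175 and from 487 to 4169 reads for a single member. Intervals given below cover counting error only.

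All 76 members were detected, and 73 of them were higher in the RON TK-/- labelled library. Their summed level was 1264 FPKM (read fragments scaled to transcript length and library depth) in the WT-labelled library and 2082 FPKM in the RON TK-/- labelled library, which is 0.296% and 0.466% of all FPKM. On the scale used throughout, log2 of (FPKM + 1) in the RON TK-/- labelled library over (FPKM + 1) in the WT-labelled library, their median was 0.84. A gene was called detected when it reached 1 FPKM in one library or both. The median of all 11288 detected genes was itself 0.57, and 76.4% of those genes were higher in the RON TK-/- labelled library. Relative to that median, 55 of 76 members lay above it.

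At least 2-fold higher in the RON TK-/- labelled library were 24 members (31.6%), against 25.6% of all detected genes, and 0 members were at least 2-fold lower, against 8.71%. Once the median of all genes was subtracted, 6 members were at least 2-fold higher (7.89%, against 8.38% of all genes) and 1 was at least 2-fold lower (1.32%, against 14.4%). The share of members far above the rest was therefore near the background. The members lay close together: the middle 50% of their ratios ran from 0.54 to 1.06, and that of all detected genes from 0.05 to 1.01.

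**Figure D1:**
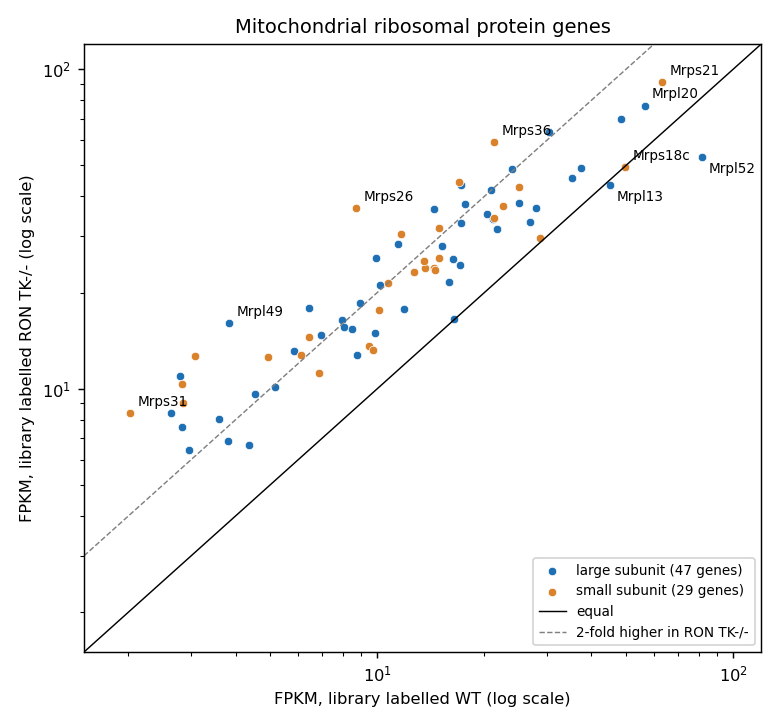
Level of each of the 76 members in the WT-labelled library (x axis) and the RON TK-/- labelled library (y axis), in FPKM on log scales, coloured by subunit. The solid line marks equal levels and the dashed line a 2-fold higher level in the RON TK-/- labelled library. All but 3 points lie above the solid line, and Mrpl52 lies farthest below it.

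The medians of large and small subunit genes were close, while counts of the higher small subunit genes were larger in proportion. The 47 large subunit genes had a median of 14.4 FPKM in the WT-labelled library (range 2.63 to 81.6) and 24.5 FPKM in the RON TK-/- labelled library (range 6.42 to 76.9). For the 29 small subunit genes the medians were 12.7 FPKM (2.02 to 63.2) and 23.8 FPKM (8.41 to 91.2). The median log2 ratio was 0.85 for the large and 0.82 for the small subunit, a gap of 0.03 whose sign turned with a pseudocount of 5 FPKM and when the most abundant transcript alone was used. At least 2-fold higher were 13 of 47 large (27.7%) and 11 of 29 small subunit genes (37.9%), and relative to the median of all genes 4.26% and 13.8%. Above that median lay 31 of 47 (66.0%) and 24 of 29 (82.8%), and the summed FPKM was 1.57-fold and 1.78-fold higher. These differences between the subunits were not tested. The order of levels was largely shared by the libraries, with a Pearson's r of 0.92 for log2 FPKM across the 76 genes (Spearman's rho 0.93), a description across genes, which are not replicates. Over all 9605 genes that reached 1 FPKM in each library, r was 0.80.

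The 29 large subunit proteins with bacterial homologs form the core around the peptidyl transferase centre, the exit tunnel and the factor-binding stalk, and their genes had a median log2 ratio of 0.85. Of these, 8 were at least 2-fold higher in the RON TK-/- labelled library: Mrpl2, Mrpl9, Mrpl12, Mrpl15, Mrpl19, Mrpl28, Mrpl34 and Mrpl36. That share was 27.6%, against 25.6% of all detected genes. Mrpl15 had 2.79 FPKM in the WT-labelled library and 10.97 FPKM in the other, a log2 ratio of 1.66. Mrpl9 followed, at 6.44 and 17.9 FPKM (1.35). Mrpl2, a core protein near the peptidyl transferase centre, had 9.94 and 25.6 FPKM (1.28). The levels of Mrpl36, homolog of a small zinc-binding bacterial protein, were 14.4 and 36.5 FPKM (1.28). Such genes were at low to middling levels, from 2.79 to 23.9 FPKM in the WT-labelled library.

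Stalk genes were not alike. The stalk recruits translation factors, and Mrpl12, its multi-copy protein, which has also been found bound to the mitochondrial RNA polymerase, had 17.2 and 43.5 FPKM, a log2 ratio of 1.29. Mrpl10, which anchors Mrpl12, was at 15.2 and 27.9 FPKM (0.84). Mrpl11 at the stalk base had 4.35 and 6.69 FPKM (0.52), below the median of all genes.

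At the other end of this class, Mrpl13 was at 45.0 FPKM in the WT-labelled library and 43.5 FPKM in the other (-0.05). Mrpl14 had 26.8 and 33.4 FPKM (0.31), and Mrpl30 35.3 and 45.8 FPKM (0.36). Relative to the median of all genes all 3 were lower in the RON TK-/- labelled library. Among the most abundant members, Mrpl20 had 56.5 and 76.9 FPKM (0.44) and Mrpl33 48.3 and 69.6 FPKM (0.52). Both of these stood below the median ratio too, although higher in absolute level.

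The 18 large subunit genes without bacterial homologs had a median log2 ratio of 0.83, and 5 were at least 2-fold higher: Mrpl41, Mrpl42, Mrpl43, Mrpl49 and Mrpl50. That share was 27.8%, against 25.6% of all detected genes. Mrpl49 stood highest in the large subunit, with 3.84 FPKM in the WT-labelled library and 16.0 FPKM in the other, a log2 ratio of 1.81. As a ratio of FPKM this is 4.17, with an exact 95% interval of 3.74 to 4.66 from implied reads, for counting error only. Its locus (chromosome 19, 6053630 to 6057751, mm10) overlaps that of Syvn1 by 89 bases on the other strand. In all, 9 of 76 members overlapped another gene, and as no strand setting is stated for the counting, reads there could belong to either gene. Mrpl41 had 2.63 and 8.40 FPKM (1.37), and 1002 bases of its locus are shared with Dph7. Mrpl43 had 11.5 and 28.5 FPKM (1.24), and Mrpl42 30.3 and 63.5 FPKM (1.04).

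Mrpl52 was the exception among the 76. It had 81.6 FPKM in the WT-labelled library, the highest level of any member there, and 53.1 FPKM in the RON TK-/- labelled library, where it ranked 6. Its log2 ratio was -0.61, or -1.18 relative to the median of all genes. The ratio of FPKM was 0.65 (exact 95% interval 0.608 to 0.696, counting error only). The single listed transcript is 412 bases long (chromosome 14, 54426909 to 54429750). Mrpl39, related in sequence to threonyl-tRNA synthetases, was at 16.4 and 16.5 FPKM (0.01), level in absolute terms and -0.56 relative to all genes.

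**Figure D2:**
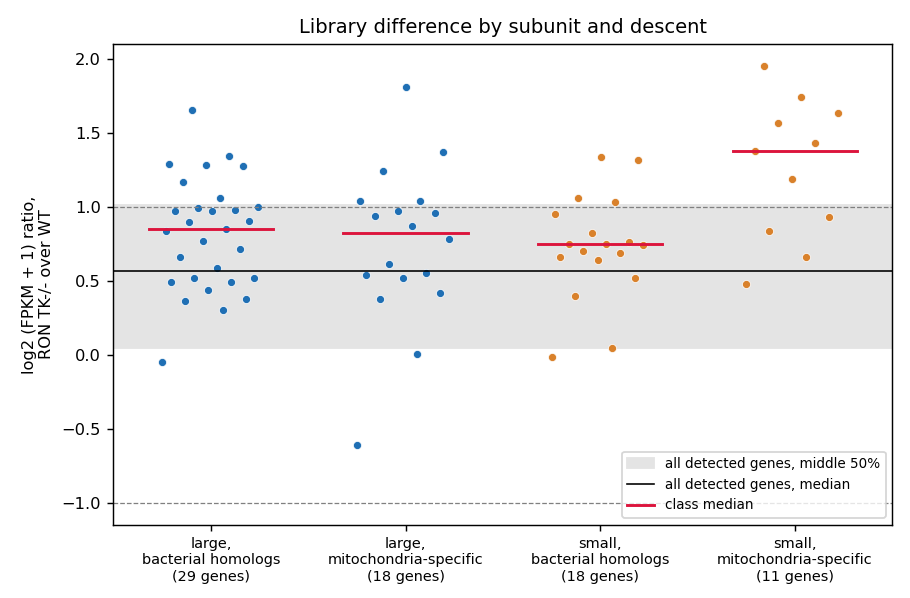
Log2 ratio of (FPKM + 1), RON TK-/- labelled over WT-labelled library, of each member by subunit and by whether bacteria have a homolog. Red bars mark class medians, the black line and grey band the median and middle 50% of all detected genes, and dashed lines a 2-fold difference. The small subunit genes without bacterial homologs have a class median of 1.38, and the other 3 classes lie between 0.75 and 0.85.

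The 18 small subunit genes with bacterial homologs had a median log2 ratio of 0.75, and 4 were at least 2-fold higher: Mrps6, Mrps12, Mrps18b and Mrps28. That share was 22.2%, against 25.6% of all detected genes. Mrps6 had 17.0 FPKM in the WT-labelled library and 44.5 FPKM in the other (1.34). Its locus overlaps that of Slc5a3, a transporter gene on the same strand, by 29138 bases. Slc5a3 had 0.52 and 5.30 FPKM, and the assignment of reads between the 2 genes is uncertain. Mrps28 had 11.7 and 30.6 FPKM (1.32). Mrps12, homolog of the bacterial protein at the decoding centre, had 6.43 and 14.5 FPKM (1.06). Low in this class was Mrps9, at 9.74 and 13.2 FPKM (0.40), and Mrps21, the most abundant small subunit gene, had 63.2 and 91.2 FPKM (0.52).

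The 3 homologs of bacterial S18 differed from one another. Mammals have 3 such proteins, of which structures place Mrps18b and Mrps18c at separate sites of the small subunit and Mrps18a in the large subunit. Mrps18b had 15.0 FPKM in the WT-labelled library and 31.8 FPKM in the other (1.04). Mrps18a had 28.7 and 29.7 FPKM (0.05), and Mrps18c 49.9 and 49.4 FPKM (-0.01). Relative to the median of all genes Mrps18b was higher by 0.47, and Mrps18a and Mrps18c were lower, at -0.52 and -0.58.

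The 11 small subunit genes without bacterial homologs had a median log2 ratio of 1.38, and 7 were at least 2-fold higher in the RON TK-/- labelled library: Mrps22, Mrps25, Mrps26, Mrps27, Mrps31, Mrps35 and Mrps36. That share was 63.6%, against 25.6% of all detected genes. Relative to the median of all genes 4 remained past 2-fold (Mrps25, Mrps26, Mrps31 and Mrps35), or 36.4%, against 8.38% of all genes. Mrps26 had the highest ratio of all members, with 8.72 FPKM in the WT-labelled library and 36.7 FPKM in the other, a log2 ratio of 1.96. In FPKM this was 4.21 times (exact 95% interval 3.82 to 4.65, counting error only). Mrps26 lies on chromosome 2 from 130563757 to 130565394. Mrps35 had 3.07 and 12.7 FPKM (1.75), and Mrps31 2.02 and 8.41 FPKM (1.64), which made Mrps31 the lowest member in the WT-labelled library.

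Mrps25 had 2.83 and 10.3 FPKM (1.57), and its locus overlaps that of Nr2c2 on the other strand by 3536 bases. Mrps27, a pentatricopeptide repeat protein, had 2.86 and 9.03 FPKM (1.38). Mrps22, mutated in a human mitochondrial disease, had 4.94 and 12.6 FPKM (1.19). These genes were among the less abundant members in the WT-labelled library, all under 9 FPKM apart from Mrps36.

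The symbols of 2 genes in this class do not match the place of the protein. Mrps36, now known as a subunit that ties the E3 enzyme into the 2-oxoglutarate dehydrogenase complex, had 21.3 and 59.2 FPKM (1.43). RefSeq lists 3 Mrps36 pseudogenes, and reads from near-identical copies could have been split. Mrps30, which structures place in the large subunit, had 9.51 and 13.6 FPKM (0.48). Without these, the other 9 genes of the class had a median of 1.38, with 6 at least 2-fold higher (66.7%, against 25.6% of all detected genes). No difference between the classes was tested.

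The naming rule took the extremes and every member past 2-fold, so the other 40 members lie between them by construction, and a few of these are described elsewhere in the text. The 27 of the large subunit ranged from 2.96 to 37.5 FPKM in the WT-labelled library and from 6.42 to 49.0 FPKM in the other, with log2 ratios from 0.38 to 0.99, and 18 stood above the median of all genes. The 13 of the small subunit ranged from 6.13 to 25.1 FPKM and from 11.2 to 43.0 FPKM, with ratios from 0.64 to 0.95, all above the median of all genes.

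**Figure D3:**
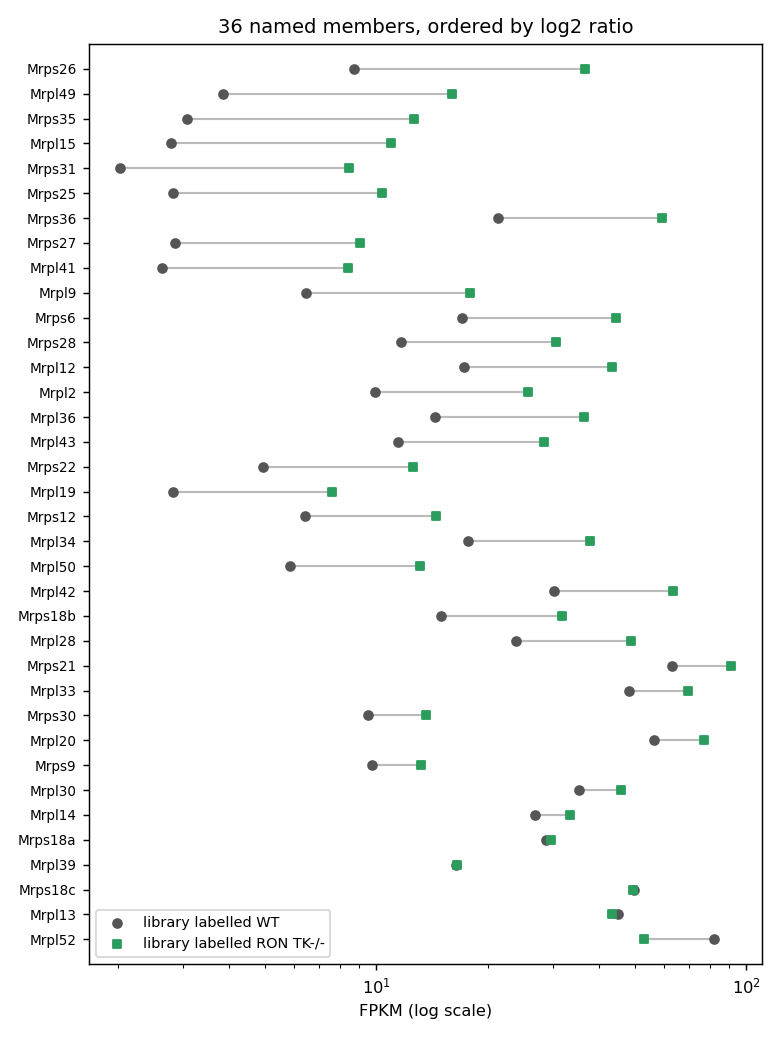
Levels of the 36 members named by the rule, in FPKM on a log scale, in the WT-labelled library (grey circles) and the RON TK-/- labelled library (green squares), ordered by log2 ratio from Mrps26 at the top (1.96) to Mrpl52 at the bottom (-0.61). Mrps18a, Mrpl39, Mrps18c and Mrpl13 have nearly coincident symbols.

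Short transcripts were the abundant ones, although FPKM is a value per length. The 14 members whose main transcript is shorter than 700 bases had medians of 32.8 FPKM in the WT-labelled library and 47.4 FPKM in the other, and a median log2 ratio of 0.52. The 41 members from 700 to just under 1500 bases had 12.7 and 24.5 FPKM (0.90), and the 21 members of 1500 bases or more 4.35 and 11.2 FPKM (0.90). Log2 FPKM and log2 length had a Pearson's r of -0.74 in the WT-labelled library and -0.76 in the other over the 76 genes. For the log2 ratio and log2 length r was 0.33. The part of transcript length in the differences was not tested.

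Of the 76 genes, 7 had more than 1 listed transcript. Mrpl48 showed the clearest difference in make-up: its non-coding transcript NR_003559 made up 12.2% of the gene's FPKM in the WT-labelled library and 2.52% in the other, so that the coding transcript NM_198831 went from 14.0 to 21.0 FPKM while the gene total went from 15.9 to 21.5 FPKM. The Mrpl48 locus overlaps that of Rab6a on the other strand by 411 bases. Rab6a had 39.6 and 48.5 FPKM, and the assignment of reads in the overlap is uncertain. Mrps36 had its shorter form NM_001190264 at 10.4% and 15.1% of the total. For Mrpl1 the shorter NM_001039084 made up 21.9% and 29.0%. For Mrps10 the transcript NM_001146212 made up 46.5% and 40.5%. Mrpl15, Mrps2, Mrps33 and also Mrps36 were within 5 percentage points for every transcript. Such shares are estimates from single reads of 50 bases, with no error given in the files.

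Some members share their start region with a gene that runs the other way. Taking strands from GENCODE and starts from the files, 26 of 76 members had a divergent neighbour whose start lay within 1000 bases (or overlapped by up to 200). The share of all genes with such a neighbour was not computed, so this is a count only. One such pair joins the subunits: Mrpl46 and Mrps11 on chromosome 7 are 41 bases apart. Mrpl46 had 8.50 FPKM in the WT-labelled library and 15.4 FPKM in the other (0.78), and Mrps11 had 10.1 and 17.6 FPKM (0.75), nearly the same level and the same difference. Of the remaining 24 members, 20 had a neighbour that was detected. Those neighbours had a median log2 ratio of 0.55, 10 of 20 lay above the median of all genes, and 4 (against 25.6% of all genes) were at least 2-fold higher. The ratios of member and neighbour had a Pearson's r of 0.12 over these 20 pairs, a description.

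The stretches between the divergent starts are shown for 5 pairs, from RefSeq's GRCm38.p6 promoter sequences: the pair within the family, 2 pairs in which both genes were at least 2-fold higher, and 2 in which they were unlike. Each reads 5′ to 3′ on the strand of the member, towards its start. Capitals mark CCGGAAG, the core bound by ETS factors such as GABP, or its reverse complement.
Mrpl46 to Mrps11 (chr7:78783090-78783130, minus strand): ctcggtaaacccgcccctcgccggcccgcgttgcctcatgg
Mrpl43 to Peo1 (chr19:45006443-45006557, minus strand): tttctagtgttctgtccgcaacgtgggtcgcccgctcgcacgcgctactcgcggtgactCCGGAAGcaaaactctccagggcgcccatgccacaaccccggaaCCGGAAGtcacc
Mrps27 to Ptcd2 (chr13:99344679-99344785, plus strand): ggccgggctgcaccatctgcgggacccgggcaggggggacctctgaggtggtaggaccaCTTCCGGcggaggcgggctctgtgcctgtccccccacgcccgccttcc
Mrpl49 to Fau (chr19:6057752-6057887, minus strand): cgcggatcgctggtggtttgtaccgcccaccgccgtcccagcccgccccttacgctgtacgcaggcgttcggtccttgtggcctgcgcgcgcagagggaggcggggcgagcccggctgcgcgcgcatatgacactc
Mrps18c to Helq (chr5:100798601-100798758, plus strand): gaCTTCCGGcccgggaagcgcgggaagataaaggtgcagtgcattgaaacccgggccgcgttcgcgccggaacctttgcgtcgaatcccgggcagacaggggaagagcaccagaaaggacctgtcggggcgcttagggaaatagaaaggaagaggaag

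In the second of these, Peo1, which encodes the helicase Twinkle of mitochondrial DNA, had 0.53 FPKM in the WT-labelled library and 2.64 FPKM in the other (1.25), beside 1.24 for Mrpl43. Ptcd2, a mitochondrial pentatricopeptide repeat gene, had 3.80 and 13.0 FPKM (1.54), beside 1.38 for Mrps27. Fau, which encodes a ubiquitin-like protein fused to a protein of the cytosolic ribosome, had 511 and 615 FPKM (0.27), against 1.81 for Mrpl49. The helicase gene Helq had 0.22 and 1.31 FPKM (0.92) beside an Mrps18c ratio of -0.01. As deposited, Mrpl30 (0.36) and its neighbour Mitd1 (-0.76) went opposite ways. Mitd1 had 20.6 FPKM in the WT-labelled library and 11.8 FPKM in the other. Both ratios were below the median of all genes, 0.57. A shared start region thus went with like ratios in some pairs and unlike ratios in others.

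**Figure D4:**
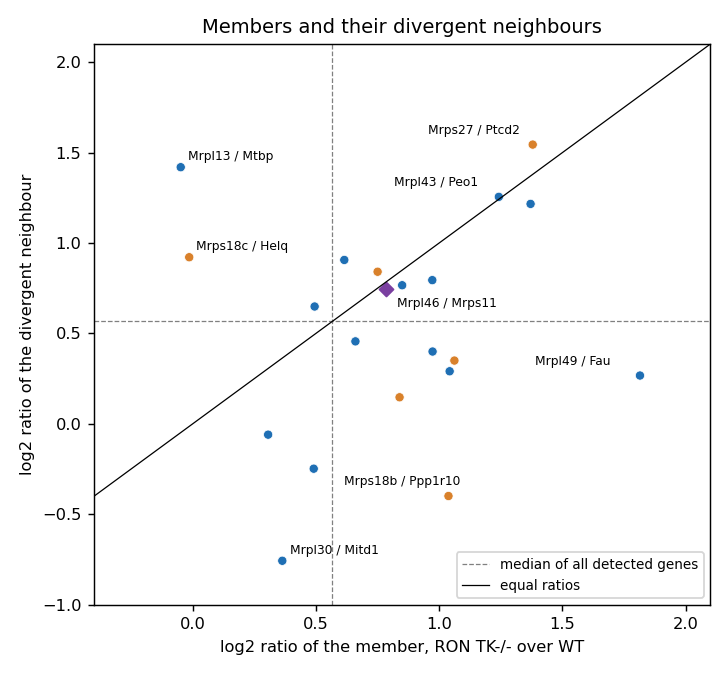
Log2 ratio (RON TK-/- labelled over WT-labelled library) of a member on the x axis and of its divergent neighbour on the y axis, for 20 pairs with a detected neighbour outside the family (blue, large subunit; orange, small subunit) and for Mrpl46 with Mrps11 (purple diamond). The dashed lines mark the median of all detected genes, 0.57. Points lie on both sides of the line of equal ratios.

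RefSeq promoters (250 bases before to 50 after the start) were at hand for 67 members and 27025 genes in all. The 27025 were not limited to detected genes, whereas all members were detected. Values for all genes below thus include genes not detected here. CCGGAAG was found on either strand in 24 of 67 members (35.8%) and in 9.93% of all genes. The NRF1 motif (GCGCA, any base, then GCGC) was found in 12 members (17.9%) and in 5.19% of all genes, and the YY1 motif AAGATGGC in 12 members (17.9%) and in 3.19% of all genes. NRF1, GABP and YY1 are known regulators of nuclear genes for mitochondria. The E-box CACGTG, bound by MYC among others, was found in 5 members (7.46%) and in 8.09% of all genes, and the TATA box letters TATAAA in 5 members (7.46%) and in 15.7%. The median GC content was 58% for the members and 52.8% for all genes. By motif, the median log2 ratio was 0.73 with CCGGAAG and 0.84 without, 0.54 with the NRF1 motif and 0.84 without, 0.75 with the YY1 motif and 0.84 without, 0.54 with the E-box and 0.83 without, and 0.69 with TATAAA and 0.84 without. The median was thus lower with than without each of the 5 motifs searched. Groups with a motif were as small as 5 members and overlapped, 9 members had no entry, and these differences were not tested. A match is a description of the letters and no evidence of binding.

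Of the factors themselves, Nrf1 had 4.07 FPKM in the WT-labelled library and 5.91 FPKM in the other (0.45), Gabpa 10.5 and 14.4 FPKM (0.42), Gabpb1 13.9 and 7.88 FPKM (-0.74) and Yy1 22.3 and 29.4 FPKM (0.38). All 4 were below the median ratio of all genes. Within the list of 12 regulators of mitochondrial biogenesis, 11 were detected, with a median of 0.38. The 2 at least 2-fold higher were Myc, at 6.55 and 23.2 FPKM (1.68), and its antagonist Mxi1, at 3.41 and 12.6 FPKM (1.62). Max, the partner of both proteins, had 83.2 and 42.0 FPKM (-0.97). Relative to the median of all genes 2 of 11 were at least 2-fold higher (18.2%, against 8.38% of all genes) and 3 of 11 at least 2-fold lower (27.3%, against 14.4%), the latter being Max, Gabpb1 and Ppargc1b. Of the coactivators, Ppargc1b had 3.37 and 1.19 FPKM, just within 2-fold on the log scale used, and Ppargc1a was under 0.1 FPKM in both libraries.

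Mitochondrial ribosome proteins with other symbols were in the same range. Of the 7 listed, all were detected and 0 were 2-fold apart, with a median log2 ratio of 0.75. Among all detected genes 25.6% passed 2-fold upwards and 8.71% downwards, so a count of 0 from only 7 genes says little. Gadd45gip1 of the large subunit had 8.83 and 17.9 FPKM (0.94), and Ptcd3 of the small subunit 6.76 and 13.6 FPKM (0.92).

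Other genes of mitochondrial protein synthesis, and those of mitochondrial DNA, had median log2 ratios at or above that of the members. Their levels were lower, with list medians from 1.89 to 3.89 FPKM in the WT-labelled library and from 5.29 to 9.32 FPKM in the other. The medians of the members were 13.1 and 23.9 FPKM. The part of level in the ratios was not tested. Of 16 genes listed as translation factors 10 were at least 2-fold higher in the RON TK-/- labelled library, with a median of 1.05. That list also holds genes of other roles, such as Oxa1l. Oxa1l, the insertase that receives new chains at the inner membrane, had 4.51 FPKM in the WT-labelled library and 18.8 FPKM in the other (1.85), and the elongation factor gene Tsfm 3.24 and 13.9 FPKM (1.81). Among 23 genes of ribosome assembly and ribosomal RNA modification 9 were at least 2-fold higher, with a median of 0.86, led by Ngrn at 3.69 and 15.2 FPKM (1.79) and Mettl17 at 1.81 and 8.43 FPKM (1.74). Of 19 genes of mitochondrial aminoacyl-tRNA synthesis 7 were at least 2-fold higher (median 0.93). Gatc, a subunit of the amidotransferase that makes glutaminyl-tRNA, had 1.65 and 13.0 FPKM (2.40), and Mars2 had 0.40 and 3.30 FPKM (1.62). In the list of mitochondrial DNA replication and transcription 6 of 14 were at least 2-fold higher (median 0.87), with the single-stranded DNA binding gene Ssbp1 at 4.76 and 18.3 FPKM (1.75) and the RNase P subunit gene Trmt10c at 4.39 and 15.7 FPKM (1.63). In these 4 lists 0 genes were at least 2-fold lower. The shares of all detected genes past 2-fold were 25.6% higher and 8.71% lower. Relative to the median of all genes, 4 of 16 genes of the translation factor list and 3 of 23 assembly genes were at least 2-fold higher. So were 2 of 19 aminoacyl-tRNA genes and 2 of 14 mitochondrial DNA genes, against 8.38% of all genes.

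Nuclear genes of the respiratory chain, whose messages are translated in the cytosol, and genes of the cytosolic ribosome had medians close to that of all genes. Of 76 nuclear genes of the respiratory chain and ATP synthase 0 were 2-fold apart, with a median log2 ratio of 0.51. Ndufa6 of complex I had 53.3 and 101 FPKM (0.91) and Sdha of complex II 48.6 and 88.2 FPKM (0.84). Of 79 detected cytosolic ribosomal protein genes 1 was 2-fold higher, Rpl26 at 36.2 and 115 FPKM (1.65), with a median of 0.55. Rpl3 had 300.0 and 545 FPKM (0.86). Among 16 genes of mitochondrial import and folding the median was 0.51, and the 2 at least 2-fold higher were the chaperonin Hspd1 (53.0 and 134 FPKM, 1.32) and Hspa9 (75.3 and 158 FPKM, 1.06). As shares, 0%, 1.27% and 12.5% of these lists, in that order, passed 2-fold upwards, against 25.6% of all detected genes. Downwards, 0 genes of these lists passed 2-fold, against 8.71% of all detected genes. Relative to the median of all genes the members were 0.27 above it, the respiratory chain genes were at -0.06 and the cytosolic ribosomal protein genes at -0.02. The respiratory chain genes were also more abundant, with medians of 72.8 and 98.1 FPKM against 13.1 and 23.9 FPKM for the members. The difference between lists was not tested.

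**Figure D5:**
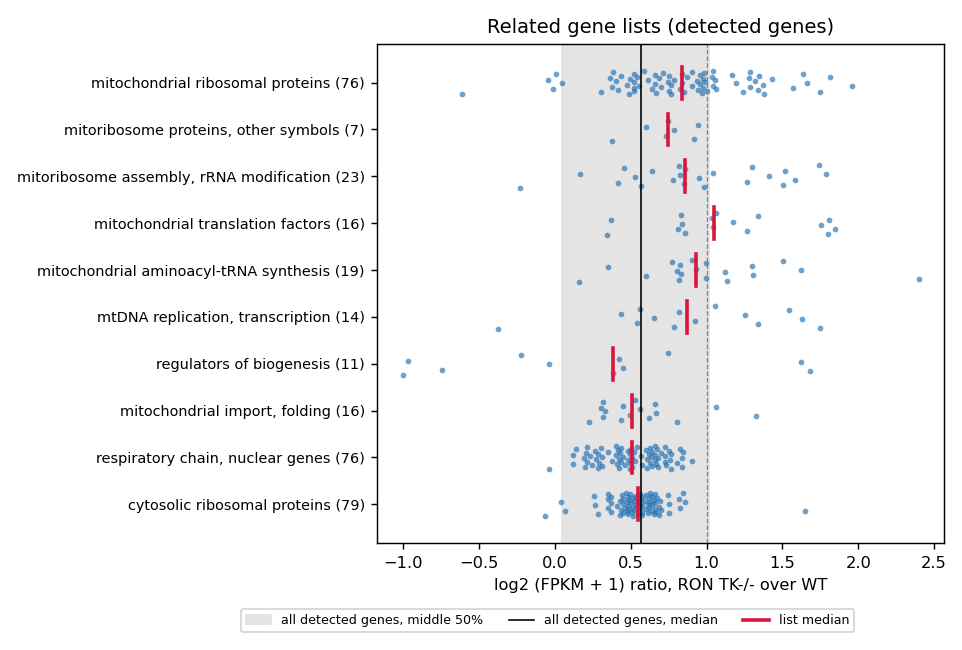
Log2 ratio of (FPKM + 1), RON TK-/- labelled over WT-labelled library, of every detected gene in 10 lists, with the number of genes in brackets. Red bars mark list medians, which run from 0.38 for the regulators to 1.05 for the translation factors, and the black line and grey band mark the median (0.57) and middle 50% of all detected genes.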

How the data were processed

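RNA-seq of 2 libraries was used, 1 per group. For each library the authors deposited a transcript table holding FPKM, coverage (mean read depth per base) and transcript length, per the file headers, whose columns are those of Cufflinks. Build mm10 and the tool DESeq, with no role, come from the submitters' processing notes. No source used here names the aligner, annotation release or strand setting. The 31580 rows of a table include 85 for the 76 members. FPKM was summed per symbol, with a pseudocount of 1 FPKM, a minimum of 1 FPKM in either library and a 2-fold threshold. No count model was used. Reads were implied as coverage times length over 50 bases, and intervals on them are exact binomial ones (Clopper-Pearson, 95%). Starts matched RefSeq after adding 1 for 12690 genes, so positions count from 1.

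The members and lists were chosen with earlier results of these data known. The rule named, per subunit, the 5 highest and 5 lowest ratios among members with at least 5 FPKM in a library, the 3 most abundant, every member past 2-fold or not detected, and 6 members with a known place or role, and up to 2 genes per list. Other members (Mrpl1, Mrpl10, Mrpl11, Mrpl46, Mrpl48, Mrps2, Mrps10, Mrps11 and Mrps33) were named after their values were seen. So were other genes, among them Rab6a, the single macrophage markers, the divergent neighbours and the regulators. Of the list entries, Gatb was not found, nor was Ly6g of the neutrophil markers. Transcripts of mitochondrial DNA were not analysed here, as no symbol beginning with mt- was listed. The calculation was tested on simulated data. Alternatives covered the pseudocount, filter, scaling, transcript choice and threshold. Strands came from the GENCODE annotation of GRCm38. Python 3.11.15, pandas 2.3.3 and scipy 1.17.1 were used.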

Additional observations from a re-analysis of the deposited data

How the results depend on the processing

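The medians of both subunits stayed above 0 and above the median of all genes under every setting run. Large and small subunit medians (0.85 and 0.82) became 0.94 and 0.87 with a pseudocount of 0.1 FPKM, 0.60 and 0.67 with 5 FPKM, and 0.28 and 0.26 with the median of all genes rescaled to 0. No symbol beginning with mt-, used for genes of mitochondrial DNA, was listed, so removing such genes had nothing to act on. On the TPM scale the small subunit median was 0.79, and without small RNA, cytosolic ribosomal protein and haemoglobin genes the large subunit median 0.90. Their gap of 0.03 was 0.0697 with a pseudocount of 0.1 FPKM, 0.0666 on the TPM scale and 0.0679 on the TPM scale without those genes, and changed sign with a pseudocount of 5 FPKM (-0.0727) and with the most abundant transcript only (-0.00188), so neither subunit can be called the higher. The count of 24 members 2-fold higher was 12 with a pseudocount of 5 FPKM (8.71% of all genes), 6 after median rescaling (8.38%; with 1 lower), 55 at 1.5-fold (48.9%; with 1 lower) and 0 at 4-fold (3.71%). It was 33 with a pseudocount of 0.1 FPKM (34.8%), 23 on the TPM scale (29.0%) and 29 on the TPM scale without those genes (31.2%). Members' shares of all FPKM (0.296% and 0.466%) were 0.305% and 0.48% with the most abundant transcript only, and 0.321% and 0.521% without the gene classes above. Filters of none or 5 FPKM changed no value of the members. Placing Mrps30 and Mrps18a in the large subunit and leaving out Mrps36, a choice made after seeing the data, gave 0.84 and 0.83. Of 288 values of the 36 named members under 8 settings, 218 stayed within the counting error and 70 moved further. The filters could change no member value, and the transcript choice none for members with 1 listed transcript. Part of the 218 was thus fixed beforehand. Among these 36 members, median rescaling changed the sign of 9 (Mrpl14, Mrpl20, Mrpl30, Mrpl33, Mrpl39, Mrps9, Mrps18a, Mrps21 and Mrps30). The TPM scale changed the sign of 2 (Mrpl39 and Mrps18a), and the TPM scale without those genes that of 1 (Mrpl39). Over all 76 members, 73 ratios were above 0 before median rescaling and 55 after it. No paired analysis was possible because each group has 1 library. No replicate could be left out for the same reason. The depth limits little here, since each member had at least 182 implied reads, but it covers counting error only.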
